A study of Mus musculus with 68 samples.

Results

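Fibroblast growth factor (FGF) signalling was followed through 10 genes of mouse pharyngeal arches: the ligands Fgf3, Fgf8, Fgf9, Fgf10 and Fgf15, the receptors Fgfr1 and Fgfr2, and the feedback inhibitors Spry1, Spry2 and Spry4. The genes were chosen by name, as the rows whose Ensembl identifiers carry those symbols. All 10 were found among the 21948 genes of the deposited table, and all 10 passed the filter on low values, a CPM (a read count scaled to library depth) of 1 or more in 3 or more libraries.

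Pharyngeal arches are outpocketings on either side of the future neck: PA1 builds the jaws, and PA2, just behind it, contributes to the hyoid and middle ear. RNA of 68 hand-dissected arch samples was sequenced over 4 stages spaced evenly in time. The first is E9.0 and the last E10.5, and values follow that order below. The embryos were of strain CBA/Ca/J x C57BL/10 and were either wildtype or labelled Hoxa2-/-. Hoxa2 is a homeobox gene expressed in PA2. No treatment is given for any group. Wildtype PA1 had 5, 5, 5 and 3 libraries and its PA2 had 4, 4, 5 and 3. Under the label Hoxa2-/- each arch had 4, 5, 5 and 3. In all 35 embryos were used, both arches being present for 33 of them, and whether an arch of 1 side or of both was taken is not given in the sources used here.

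FGF ligands are secreted, bind receptor tyrosine kinases on nearby cells and switch on the RAS and ERK pathway. Sprouty proteins are made in response to that pathway and dampen it, and the genes Etv4, Etv5 and Dusp6 are commonly read as targets of FGF signalling. In the arches, Fgf8 is known as a ligand of the surface ectoderm that sustains the neural crest cells beneath it, and Fgf3 and Fgf15 are known from the ectoderm and endoderm of the pharynx. These places are background and were not measured in whole arches.

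Several facts of the libraries bear on every comparison. Recovered reads per library ran from 8912251 to 20619153, so 3 reads, used as the floor for folds, stood at no more than 0.273 CPM in the groups where it was needed. Hoxa2 went against the label: in PA2 it ran from 16.8 to 147 CPM under the label Hoxa2-/- and from 20.2 to 63.3 CPM in wildtype. The sources used here do not say which part of the gene the allele changes, so these libraries are called labelled Hoxa2-/- throughout. In PA1, Hoxa2 stayed at or below 0.926 CPM in every library, and the summed markers of neural crest mesenchyme ran from 324 to 721 CPM over all libraries. A further 19 genes, none of them among the 10, separated 24 libraries, the wildtype ones of every stage but E10.0, from the other 44 without overlap. One of them, Ski, ran from 26.3 to 108 CPM in those 24 and from 9.28 to 22.8 CPM in the rest. An effect of the label and of this division cannot be told apart at those 3 stages, whereas at E10.0 both labels lie on the same side. Finally, 4 PA2 libraries stood farthest apart in blood or yolk sac markers. Wildtype replicate 2 at E9.0 held 54240 CPM of blood genes. Yolk sac endoderm genes reached 225 CPM in replicate 3 at E9.0 and 203 CPM in replicate 4 at E10.0 labelled Hoxa2-/-. Wildtype replicate 3 at E10.0 held 86.5 CPM of them. PA1 was not free of other tissue. Yolk sac genes reached 50.7 and 40.8 CPM in wildtype PA1 replicates 3 and 4 at E9.0. Heart muscle genes summed to 172 CPM in wildtype PA1 replicate 4 at E9.5.

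Fgf3 and Fgf15 lie in a row on mouse chromosome 7 (GRCm38, GENCODE M21), both on the forward strand. Fgf3 is annotated at chr7:144838083-144844436 and Fgf15 at chr7:144896531-144900953. The gap between them is 52.1 kb and holds 1 other protein-coding gene, Fgf4, at chr7:144847367-144865243. Promoter windows of 230 bases, from 250 to 21 bases before the RefSeq start site (GRCm38.p6), were matched for 6 of the 10 genes: Fgf3, Fgf9, Fgf10, Fgfr2, Spry1 and Spry2. The windows of 3 genes are printed, those of Fgf3, which had the largest arch difference of the 6, and of Spry1 and Spry2, the feedback genes called on the same side. They read 5′ to 3′ along the gene, with CG pairs in capitals. Fgf3 is at chr7:144838362-144838591 (forward strand), within the first intron of the GENCODE transcript that starts farthest upstream, Spry1 at chr3:37639697-37639926 (forward strand) and Spry2 at chr14:105896840-105897069 (reverse strand).
Fgf3: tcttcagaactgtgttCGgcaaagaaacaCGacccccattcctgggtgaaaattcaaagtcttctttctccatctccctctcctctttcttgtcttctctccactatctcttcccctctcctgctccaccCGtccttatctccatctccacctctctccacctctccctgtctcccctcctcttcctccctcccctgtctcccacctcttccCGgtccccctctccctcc
Spry1: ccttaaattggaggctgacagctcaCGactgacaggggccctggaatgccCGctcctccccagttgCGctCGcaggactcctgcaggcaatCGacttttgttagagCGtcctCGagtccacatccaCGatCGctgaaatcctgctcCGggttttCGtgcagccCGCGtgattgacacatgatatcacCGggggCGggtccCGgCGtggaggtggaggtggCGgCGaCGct
Spry2: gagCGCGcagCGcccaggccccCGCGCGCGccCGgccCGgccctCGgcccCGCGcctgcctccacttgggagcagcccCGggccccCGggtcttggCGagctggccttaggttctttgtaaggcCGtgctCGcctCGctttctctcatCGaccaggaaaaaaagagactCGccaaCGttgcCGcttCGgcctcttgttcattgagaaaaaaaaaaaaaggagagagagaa
The Fgf3 window held 4 CG pairs, near the median of 5 over 32851 mouse promoters, and 47.4% of those promoters held 4 or fewer. Spry1 held 20, a number reached by 14.5% of promoters, and Spry2 held 23, reached by 10.2%. The other matched windows held 2 (Fgfr2), 8 (Fgf10) and 10 (Fgf9). The letters CCGGAAG, an ETS factor motif, occurred on neither strand in any of the 6 windows, and in 5.56% of all promoters. The letters TGATNNAT, a PBX-HOX motif, occurred on either strand only in Fgfr2 among the 6, and in 7.26% of all promoters. The motifs do not overlap.

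The first question was how the genes differ between the arches. In wildtype embryos Fgf3 and Fgf15 were at or near 0 in PA1 and present in PA2, Fgf9, Fgf10, Spry1 and Spry2 were higher in PA2 at the 2 early stages, and Fgf8 changed side, from higher in PA2 at E9.0 to higher in PA1 at every later stage. Of the 10 genes, 8, 7, 4 and 2 were called at the successive stages, against 18.7, 26.3, 5.94 and 1.52 percent of all 18428 genes tested. PA2 was the higher arch for 7, 6, 2 and 1 of them and the lower arch for 1, 1, 2 and 1. The median log2 difference of the 10 was 0.73, 0.62, 0.16 and -0.15, against -0.006, 0.006, -0.024 and -0.007 over all genes. In such bulk samples fewer cells of a type and less RNA per cell cannot be told apart.

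**Figure D1:**
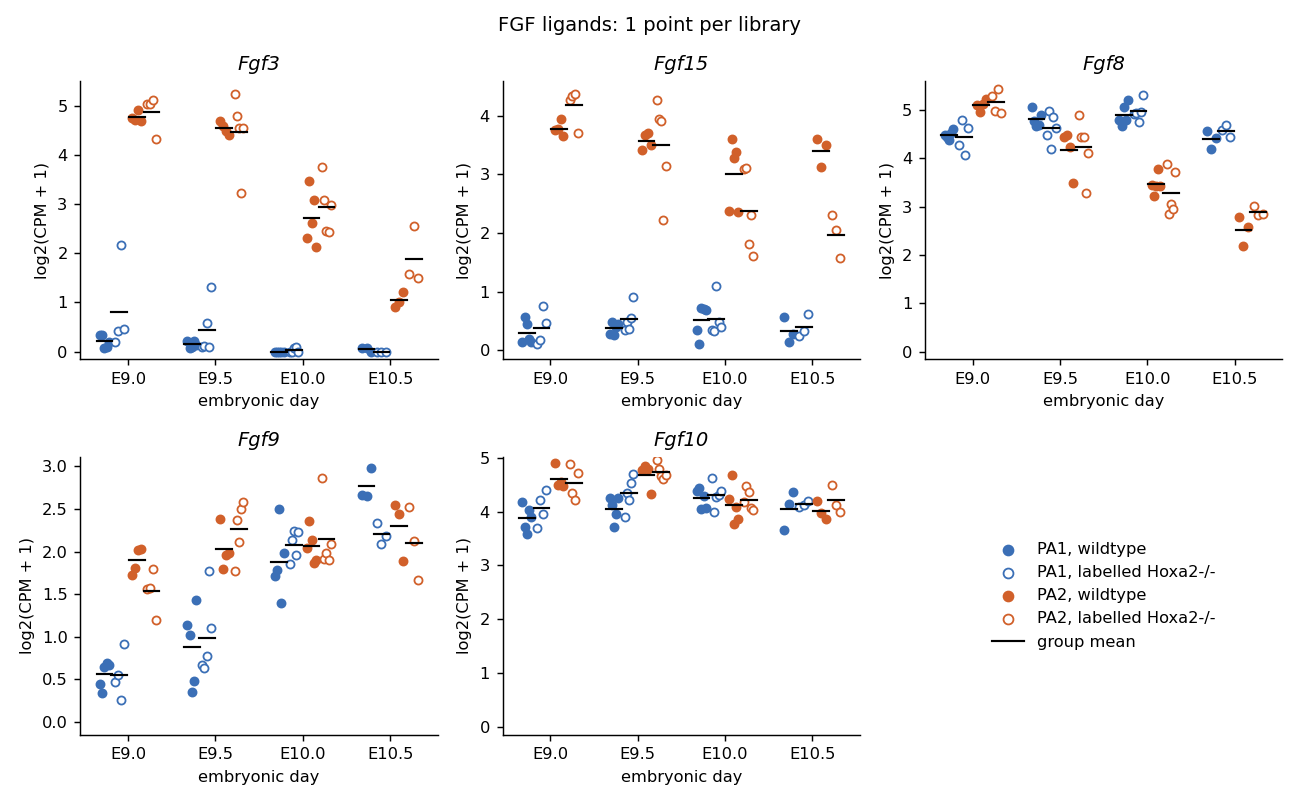
Log2(CPM + 1) of the 5 ligands in each of the 68 libraries by stage; blue is PA1, orange is PA2, filled points are wildtype, open points are labelled Hoxa2-/-, and black bars are group means. Fgf3 and Fgf15 lie near 0 in wildtype PA1 at all stages, and Fgf8 falls in PA2 but not in PA1. In PA1 labelled Hoxa2-/- Fgf3 reaches 3.48 CPM at E9.0 and 1.49 CPM at E9.5, and Fgf15 reaches 1.14 CPM at E10.0.

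Fgf3, known as a ligand for ear and pharynx development, stood at 25.95, 25.1, 29.1 and 24.9 CPM in the wildtype PA2 libraries of E9.0. The 5 PA1 libraries of that stage held 0.261, 0.271, 0.0513, 0.0690 and 0.147 CPM, which is 5 reads at most. Every PA2 library was thus far above every PA1 library. At E9.5 PA2 held 24.7, 23.1, 21.3 and 20.2 CPM and PA1 held 0.0570 to 0.160 CPM. At E10.0 PA2 held 3.93, 10.1, 5.13, 7.50 and 3.37 CPM, and no read was found in any of the 5 PA1 libraries. The PA2 mean of 6.01 CPM was at least 22.0-fold higher than the highest 3-read floor of those libraries, 0.273 CPM per library. At E10.5 PA2 had dropped to 0.879, 1.00 and 1.33 CPM, while PA1 held 0.0545, 0.0527 and 0 CPM, so the groups still did not overlap. With 3 libraries in each group, 7 of the 10 genes did not overlap between the arches at that stage, and 2 were called. The share over all genes without overlap was not counted. On the log2(CPM + 1) scale, which understates changes of low genes, the difference was 4.56 (SE 0.28, adjusted p = 3.2e-19, limma) at the first stage, then 4.39 and 2.72, all called. At E10.5 it was 0.99 (SE 0.34, adjusted p = 0.19) and was not called. There a pseudocount of 0.25 gave an adjusted p of 0.0034, a fit of only the compared groups 0.0038 and edgeR's quasi-likelihood test on recovered reads 0.015.

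Fgf15, the mouse counterpart of FGF19 and a target of Sonic hedgehog signalling in the neural tube, had the same side but another course. Wildtype PA2 held 12.5, 12.6, 14.4 and 11.5 CPM at E9.0 and 9.62, 11.7, 12.0 and 10.4 CPM at E9.5. At E10.0 it held 4.18, 11.2, 8.74, 9.37 and 4.15 CPM, a wider spread than at any other stage. At E10.5 it still held 11.2, 7.69 and 10.3 CPM. All wildtype PA1 libraries lay between 0.0785 and 0.640 CPM. The arches never overlapped, and the log2 differences of 3.48, 3.20, 2.49 and 3.07 (SE 0.25 to 0.32) were called at all 4 stages.

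Fgf8, the ectodermal ligand that maintains arch neural crest, was the gene that changed side. At E9.0 wildtype PA2 held 33.5, 30.3, 33.8 and 36.6 CPM and PA1 held 21.4, 20.6, 19.8, 22.1 and 23.3 CPM. At E9.5 the order was the other way round, with 20.8, 21.3, 17.9 and 10.3 CPM in PA2 and 32.7, 26.4, 24.6, 24.9 and 28.8 CPM in PA1. The groups did not overlap at either stage. At E10.0 PA2 held 9.94, 8.38, 9.72, 12.7 and 9.78 CPM and PA1 24.3 to 36.2 CPM. At E10.5 PA2 held 5.90, 3.53 and 4.99 CPM against 22.8, 17.2 and 20.51 CPM in PA1, a ratio of means of 0.238. Within embryos Fgf8 was higher in PA2 in 4 of 4 at E9.0, and lower in 4 of 4, 5 of 5 and 3 of 3 after that. The log2 differences were 0.62 (SE 0.20, adjusted p = 0.022), -0.66 (SE 0.20, adjusted p = 0.011), -1.44 and -1.88, all called. Each of the early calls was lost without 1 library, PA2 replicate 5 of its stage: the difference was then 0.58 (adjusted p = 0.064) at E9.0 and -0.44 (adjusted p = 0.14) at E9.5.

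Fgf9, an epithelial ligand, was low. At E9.0 wildtype PA2 held 2.32, 2.51, 3.03 and 3.09 CPM and PA1 0.271 to 0.621 CPM. At E9.5 PA2 held 4.20, 2.48, 2.90 and 2.96 CPM and PA1 0.273 to 1.69 CPM. PA2 was higher without overlap at both stages, with log2 differences of 1.34 (SE 0.21) and 1.15 (SE 0.21). By E10.5 PA1 held 5.34, 5.27 and 6.87 CPM and PA2 4.86, 4.43 and 2.72 CPM, a log2 difference of -0.47 that was not called (adjusted p = 0.78).

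Fgf10, a ligand of mesenchyme that signals to epithelium through Fgfr2, was nearer between the arches. At E9.0 wildtype PA2 held 28.8, 21.7, 22.5 and 21.3 CPM and PA1 11.0 to 17.0 CPM. Its log2 differences were 0.73 (SE 0.16, adjusted p = 7.6e-04) at E9.0 and 0.63 (SE 0.16, adjusted p = 0.0030) at E9.5, both without overlap. At E10.0 and E10.5 they were -0.12 and -0.04 and not called.

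The receptors did not follow the ligands. Fgfr1, the main receptor of mesenchyme, lay between 73.3 and 145 CPM in all wildtype libraries, and its log2 differences between arches, -0.24, 0.21, 0.18 and 0.23, were called at no stage (limma). None of these had an unadjusted p under 0.05 except E9.0, at 0.045, and edgeR called none of them. Fgfr2, whose epithelial and mesenchymal forms these gene totals do not separate, held 64.9, 49.5, 57.5 and 67.97 CPM in wildtype PA2 at E9.0 against 85.9 to 120 CPM in PA1. PA2 was lower in every library, with a log2 difference of -0.69 (SE 0.15, adjusted p = 5.2e-04). At E9.5 the difference was 0.01 and at E10.5 -0.26, neither called. At E10.0 it was -0.45 (adjusted p = 0.043), a call lost with median-of-ratios scaling (0.057), with edgeR (0.064) and without any 1 of 9 of the 10 libraries. With the embryo as a replicate block in limma the call was kept (adjusted p = 0.013), and PA2 was lower in 5 of 5 embryos. In this release the Fgfr2 model runs from 130162451 to 133123350 on chromosome 7, a very wide span, and with the counting rule not given its values are uncertain where other genes overlap it.

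**Figure D2:**
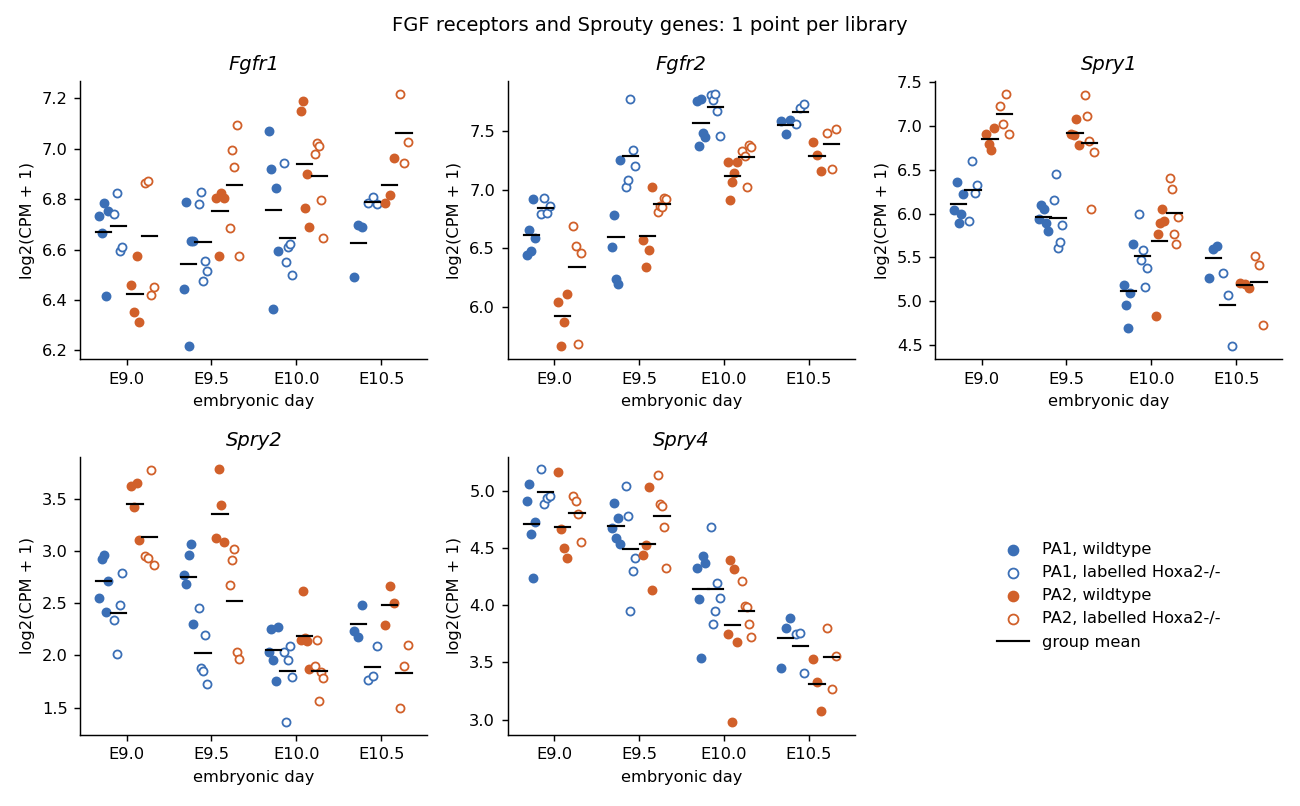
Log2(CPM + 1) of the 2 receptors and 3 Sprouty genes in each library by stage, with colours, fills and bars as in the plot of ligands; the vertical axes do not start at 0. Fgfr2 rises with stage in both arches, and Spry1 is higher in PA2 than in PA1 at E9.0 and E9.5 but not at E10.5 in wildtype.

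Among the feedback genes, Spry1 and Spry2 were higher in wildtype PA2 early and Spry4 was not. Spry1 held 119, 110, 104.99 and 125 CPM in PA2 at E9.0 and 64.9, 81.3, 58.4, 62.9 and 73.7 CPM in PA1. At E9.5 PA2 held 119, 118, 134 and 109 CPM and PA1 54.7 to 67.6 CPM. No PA1 library reached a PA2 library at either stage. The log2 differences were 0.75 (SE 0.20, adjusted p = 0.0061) and 0.96 (SE 0.20, adjusted p = 4.3e-04). At E10.0 the difference of 0.57 missed the threshold (adjusted p = 0.064), and it passed with the embryo as a replicate block (adjusted p = 0.0087) and with edgeR (adjusted p = 0.042). PA2 was higher in 4 of 5 embryos there, the exception being replicate 1, with 27.5 CPM in PA2 and 35.5 CPM in PA1. At E10.5 wildtype PA2 held 36.0, 35.6 and 34.4 CPM and PA1 37.6, 47.3 and 48.4 CPM, a difference of -0.31 that was not called.

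Spry2, the Sprouty gene best known from epithelial branching, held 11.3, 9.67, 11.6 and 7.58 CPM in wildtype PA2 at E9.0 and 4.35 to 6.77 CPM in PA1. At E9.5 PA2 held 7.70, 12.7, 9.85 and 7.47 CPM and PA1 3.92 to 7.38 CPM, so that the lowest PA2 library was just above the highest PA1 library. The log2 differences were 0.74 (SE 0.20, adjusted p = 0.0052) and 0.60 (SE 0.20, adjusted p = 0.019). The call at E9.5 was lost without wildtype PA2 replicate 2 (0.46, adjusted p = 0.096), PA2 replicate 3 (adjusted p = 0.060) or PA1 replicate 5 (adjusted p = 0.067). At E10.0 and E10.5 the differences were 0.13 and 0.18, not called. Spry4 had log2 differences of -0.03, -0.16, -0.32 and -0.40, called at no stage, with no unadjusted p under 0.05 and no call by edgeR.

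Embryos labelled Hoxa2-/- gave a second set of arch comparisons. Here 8, 4, 3 and 3 of the 10 genes were called, against 24.6, 9.58, 4.23 and 1.37 percent of all genes. PA2 was higher for 7, 4, 2 and 2 of them and lower for 1, 0, 1 and 1. With the embryo as a replicate block the counts were 8, 5, 5 and 3. The calls added were Fgfr2 at E9.5 (-0.41, adjusted p = 0.019) and E10.0 (-0.43, adjusted p = 0.023) and Spry1 at E10.0 (0.49, adjusted p = 0.032).

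Fgf3 under this label held 31.8, 31.8, 33.6 and 19.0 CPM in PA2 at E9.0 and 36.7, 26.6, 22.2, 8.33 and 22.3 CPM at E9.5. At E10.0 PA2 held 12.4, 7.43, 4.46, 4.41 and 6.92 CPM and at E10.5 1.98, 4.88 and 1.82 CPM. In PA1, replicate 3 at E9.0 held 3.48 CPM and replicate 5 at E9.5 1.49 CPM, while the other PA1 libraries held 0 to 0.493 CPM. No PA1 library reached any PA2 library of its stage. The log2 differences of 4.06, 4.03, 2.90 and 1.88 were all called. At E10.5, where PA1 had no read in 3 libraries, the PA2 mean of 2.90 CPM was at least 10.6-fold higher than the highest 3-read floor, 0.272 CPM per library.

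Fgf15 and Fgf8 kept the same order of arches under the label. Fgf15 differed by 3.80, 2.97, 1.85 and 1.57 on the log2 scale, all called and higher in PA2 in all 17 embryos. Its call at E10.5 and that of Fgf3 were lost with a pseudocount of 5 (adjusted p = 0.15 and 0.14). Fgf8 differed by 0.72 (adjusted p = 0.0086), -0.40 (adjusted p = 0.18), -1.68 and -1.67. The E9.5 value was the one not called, and 2 of 5 embryos were higher in PA2. The E9.0 call of Fgf8 was lost without PA1 replicate 3 (adjusted p = 0.052).

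The other genes under this label were called at the early stages only. Fgf9 was higher in PA2 at E9.0 (0.98, SE 0.22) and E9.5 (1.28, SE 0.20), and Spry1 at E9.0 (0.86, SE 0.21) and E9.5 (0.86, SE 0.19). Fgf10 (0.47, adjusted p = 0.037), Spry2 (0.72, adjusted p = 0.0073) and Fgfr2 (-0.51, adjusted p = 0.014) were called at E9.0. With only the compared groups fitted, the E9.0 calls of Fgf8 (adjusted p = 0.052), Fgf10 (0.19), Spry2 (0.11) and Fgfr2 (0.15) and the E9.5 call of Spry1 (0.053) were lost. Spry1 overlapped between the arches at that stage, with 65.2 to 163 CPM in PA2 and 47.6 to 86.3 CPM in PA1. The Spry2 and Fgfr2 calls were also lost without PA2 replicate 3, which carried the yolk sac markers and held 12.7 CPM of Spry2 and 50.3 CPM of Fgfr2. The differences were then 0.51 (adjusted p = 0.077) and -0.29 (adjusted p = 0.18). The Fgf10 call was lost without PA1 replicate 1 or 3 or PA2 replicate 1 or 4 (adjusted p from 0.093 to 0.17). Fgfr1 and Spry4 were called at no stage under either label, with no unadjusted p under 0.05 here except Fgfr1 at E10.0 (0.032) and no call by edgeR.

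**Figure D3:**
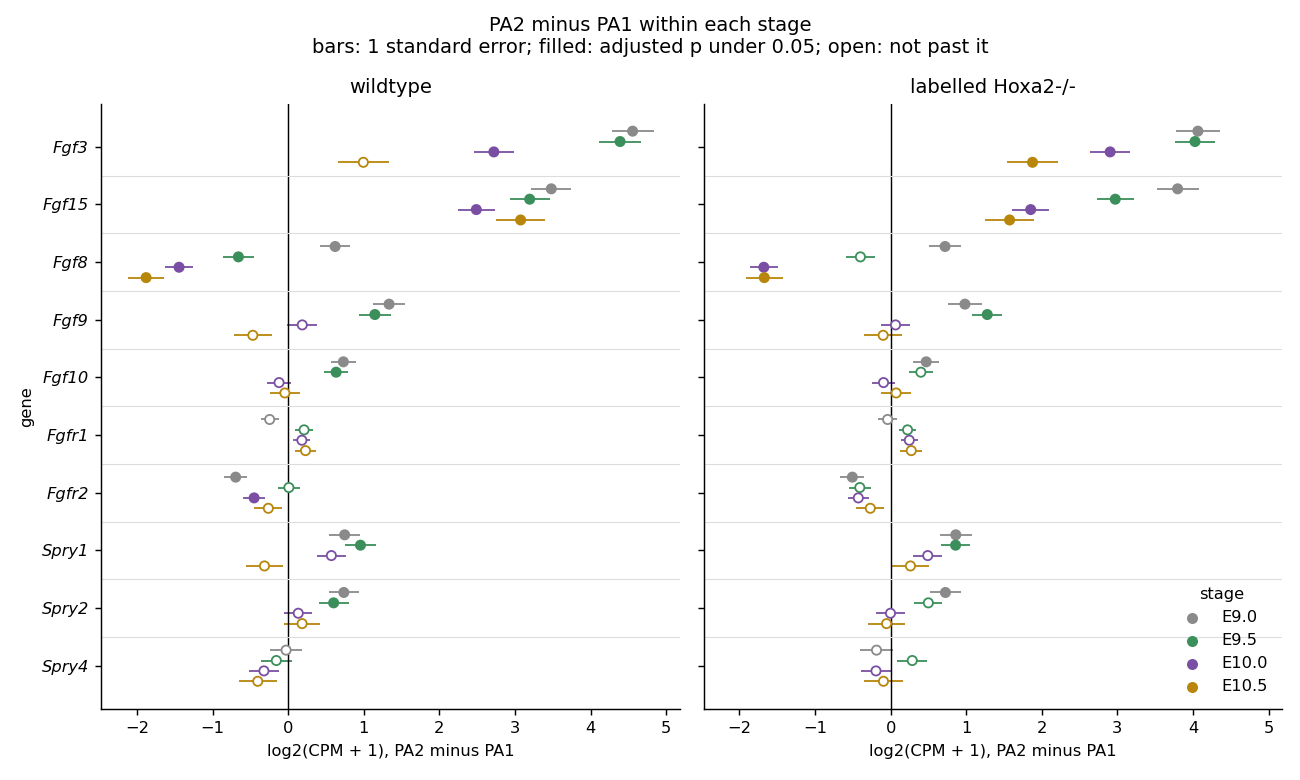
Log2 difference of PA2 minus PA1 for each gene, stage and label, with bars of 1 standard error; filled points passed an adjusted p of 0.05 and open points did not. Fgf3 and Fgf15 lie to the right at all stages, and Fgf8 moves from the right at E9.0 to the left at E10.0 and E10.5 under both labels.

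Markers of tissues moved with the arches as well. At E9.0 the 6 neural crest mesenchyme genes summed to 506 to 579 CPM in wildtype PA1 and 335 to 386 CPM in PA2, with 5 of 6 called lower in PA2 and none higher. The 6 genes of cranial and second heart field mesoderm summed to 133 to 162 CPM in PA1 and 213 to 251 CPM in PA2, with 3 higher and 2 lower. The 6 pouch endoderm genes summed to 144 to 160 CPM in wildtype PA1 at E9.0 and 248 to 337 CPM in PA2, with 4 of 6 called higher. At E9.5 4 of the pouch genes were higher and 1 lower, and at E10.0 3 were higher and 2 lower. By E10.5 the pouch genes summed to 80.3 to 95.3 CPM in PA1 and 94.9 to 109 CPM in PA2. Cranial ganglion genes summed to 29.8 to 48.6 CPM in PA1 and 100 to 199 CPM in PA2 at E9.0, with 4 of 6 higher and 1 lower, and Neurog2, a defining one, at 0 in 20 of 35 PA1 and 5 of 33 PA2 libraries. Isl1 is on both this list and the mesoderm list, with a median of 78.65 CPM over the PA2 libraries. Heart muscle genes reached 1067 CPM in wildtype PA2 at E9.0 and stayed at 3.16 to 6.69 CPM in both wildtype arches at E10.5. Pax8, an otic and pharyngeal gene, averaged 37.1 CPM in wildtype PA2 at E9.0, 7.90 CPM at E10.0 and 0.232 CPM at E10.5. It belongs to the otic list, of which 1 tested gene was higher and 2 were lower in wildtype PA2 at E9.0, with sums of 58.4 to 98.5 CPM in PA2 and 74.0 to 96.4 CPM in PA1. The part of these tissues in the differences of the 10 genes was not tested. At E10.5 the ganglion sums were still apart, at 37.9 to 43.4 CPM in wildtype PA1 and 68.1 to 80.5 CPM in PA2, and none of the neural crest genes was called.

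One PA2 library labelled Hoxa2-/- at E9.5, replicate 4, differed from its group in many of these measures. It had the lowest Fgf3 (8.33 CPM), Fgf8 (8.69 CPM), Fgf15 (3.66 CPM) and Spry1 (65.2 CPM) of the 5 libraries. Its Pax8 was 1.29 CPM against 23.5 to 29.1 CPM in the others, its heart muscle sum 10.9 CPM and its Hoxa2 102 CPM against 48.6 to 53.6 CPM. Its otic sum of 84.1 CPM lay within the range of the others, 61.5 to 108 CPM. Without this library the difference of Spry2 between the arches at E9.5 passed the threshold (0.62, adjusted p = 0.023, limma), and no call among the 10 genes was lost.

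The second question was what the label changed within an arch. At E10.0, the stage at which both labels lie on the same side of the division of libraries, limma called none of the 10 genes in PA2, where 0.0814 percent of all genes were called, and none in PA1, where 0 percent were. One gene in each arch had an unadjusted p under 0.05, Fgf15 in PA2 (0.016) and Spry1 in PA1 (0.041), and edgeR called none of the 10 in either arch. Fgf15 in PA2 held 7.48, 7.63, 2.49, 3.97 and 2.04 CPM under the label and, as given above, 4.15 to 11.2 CPM in wildtype. The groups overlapped, and the log2 difference was -0.62 (SE 0.25, adjusted p = 0.57).

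At the other stages the label cannot be told apart from the division. In PA2, 0, 1 and 1 of the 10 genes were called at those stages, against 14, 4.48 and 10.3 percent of all genes. The count of 0 at E9.0 came with 1 unadjusted limma value under 0.05, that of Fgfr2 (a difference of 0.42, 0.011 before adjustment), and with no call by edgeR. Without PA2 replicate 3 labelled Hoxa2-/-, Fgfr2 was called there (0.64, adjusted p = 0.0027). In PA1, 0, 2 and 0 genes were called, against 2.08, 23.6 and 3.05 percent. The PA1 count at E9.5 and the PA2 count at E10.5 were thus no more than the shares over all genes. The genes called are described below with that limit. Unadjusted p-values under 0.05 were found for 1 gene at E9.0, Fgf3 (0.035), and for 2 at E10.5, Fgf9 (0.031) and Spry1 (0.034), and edgeR called none at either stage.

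Spry2 was lower under the label at E9.5 in both arches. PA2 held 5.38, 6.54, 7.11, 3.09 and 2.92 CPM against 7.47 to 12.7 CPM in wildtype, without overlap. The log2 difference was -0.83 (SE 0.20, adjusted p = 0.0072), and it was not called without wildtype PA2 replicate 2 (-0.69, adjusted p = 0.061) or when the 2 groups were fitted alone (adjusted p = 0.094). PA1 held 4.49, 2.69, 2.61, 3.59 and 2.31 CPM against 3.92 to 7.38 CPM, overlapping in 1 library, with a difference of -0.73 (SE 0.19, adjusted p = 0.0031). Fgfr2 was higher in PA1 at E9.5, with 129, 134, 218, 161 and 146 CPM against 90.4, 109, 74.2, 72.2 and 152 CPM in wildtype. Its log2 difference was 0.69 (SE 0.14, adjusted p = 3.5e-04), although wildtype replicate 5 lay within the other group. The library with the most Fgfr2, replicate 3 under the label, also had the highest epithelium sum, 1264 CPM against 585 to 792 CPM in the other 4, the highest endothelium sum, 412 CPM against 168 to 321 CPM, and the lowest neural crest sum, 411 CPM against 484 to 632 CPM. Between these groups 1 epithelium and 1 endothelium marker were called higher under the label, and of the neural crest markers 1 higher and 2 lower. The Fgfr2 call was kept without that library, and the part of these tissues in its size was not tested.

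Fgf15 in PA2 at E10.5 differed most. The 3 libraries labelled Hoxa2-/- held 3.97, 3.12 and 1.96 CPM and the 3 wildtype libraries 11.2, 7.69 and 10.3 CPM. The groups did not overlap, the ratio of means was 0.311, and the log2 difference was -1.43 (SE 0.32, adjusted p = 0.0017). Fgf3 had the opposite sign there, with 1.98, 4.88 and 1.82 CPM against 0.879, 1.00 and 1.33 CPM, also without overlap. Its difference of 0.83 did not pass (adjusted p = 0.11, limma). With 3 libraries in each group, 4 of the 10 genes did not overlap here, and the share over all genes was not counted. Fgf4, which lies between Fgf3 and Fgf15, was called higher (1.58), with 1.19 to 3.84 CPM under the label and 0 to 0.0554 CPM in wildtype. Of these 3 neighbours Fgf15 was thus called lower, Fgf4 was called higher and Fgf3 was not called. Replicate 2, with the highest Fgf3 of the labelled libraries, also held 5.76 CPM of Pax8. Its otic sum of 64.2 CPM lay between those of the other labelled libraries, 63.8 and 86.9 CPM. The summed ganglion genes had a median of 61.7 CPM under the label and 77.1 CPM in wildtype. Called between these groups were 1 ganglion, 1 pouch and 1 mesoderm marker, all lower under the label, 1 marker of PA2 identity, higher, and 3 neural crest markers, 2 higher and 1 lower. Isl1 is on both the ganglion and the mesoderm list, so those calls may be of the same gene. The part of these tissues in the values of Fgf15, Fgf3 and Fgf4 was not tested.

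The difference between the label effects of the arches, in which a division shared by both arches cancels, was called for none of the 10 genes by limma. The share over all genes was 0, 0.0109, 0.0163 and 0.038 percent at the 4 stages, and edgeR called none of the 10 either. An unadjusted p under 0.05 was found for 1 gene at E9.5, Fgfr2 (0.049), and 1 at E10.5, Fgf15. For Fgf15 that difference was -1.50 (SE 0.45, adjusted p = 0.67), with 0.0016 before adjustment. The label effect on Fgf15 in PA2 at E10.5 was thus not shown to differ from that in PA1, where the gene lay at 0.105 to 0.544 CPM in all 6 libraries.

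**Figure D4:**
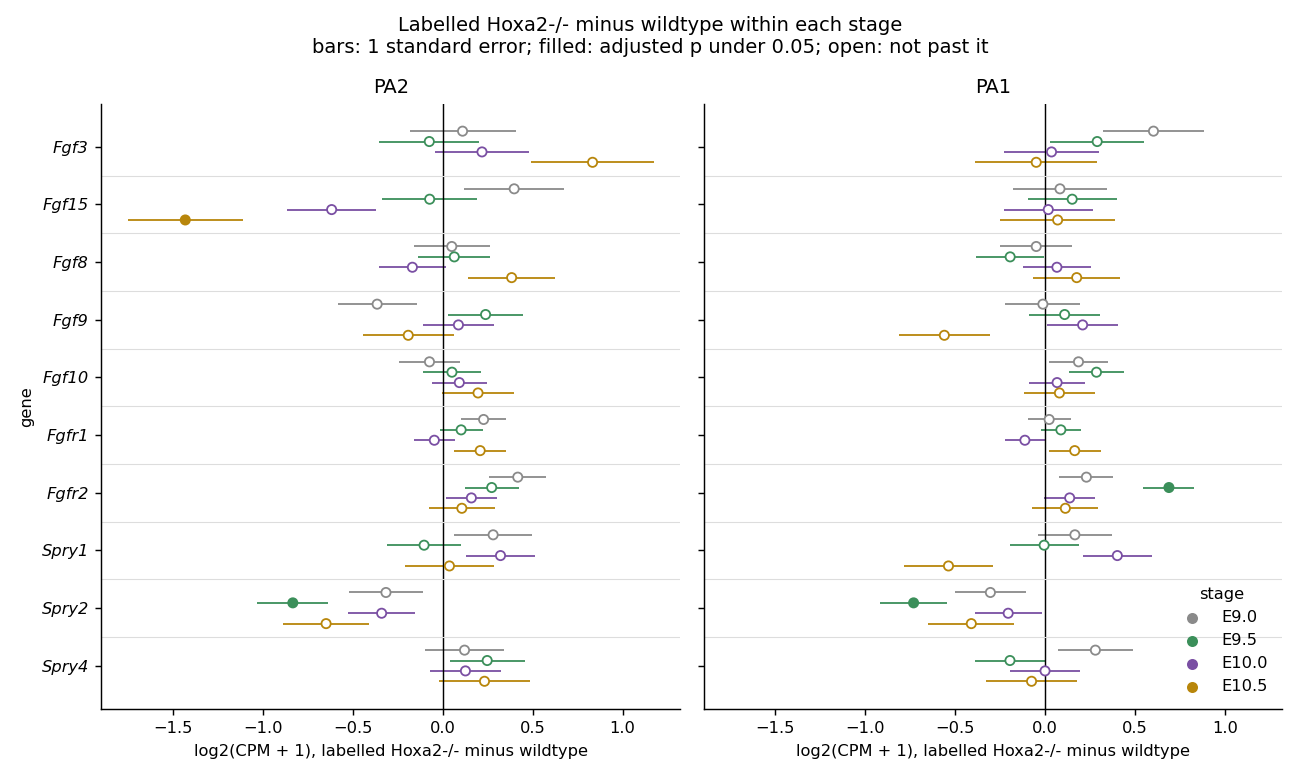
Log2 difference of libraries labelled Hoxa2-/- minus wildtype for each gene and stage in PA2 and PA1, with bars of 1 standard error and filled points for an adjusted p under 0.05. Filled points are Spry2 at E9.5 in both arches, Fgfr2 at E9.5 in PA1 and Fgf15 at E10.5 in PA2.

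The third comparison was E10.5 against E9.0 within an arch, where both stages of a label lie on the same side of the division. Wildtype libraries of E10.0 lie on the other side. Steps to or from E10.0 in the wildtype means below thus cannot be told apart from the division. In wildtype PA2 8 of the 10 genes were called, 6 lower and 2 higher at E10.5, and in wildtype PA1 4 were called, 2 lower and 2 higher. The shares over all genes were 36.9 percent in PA2 and 42.5 percent in PA1, so a call between these stages was common. Under the label Hoxa2-/- 8 genes were called in PA2 (6 lower, 2 higher) and 5 in PA1 (3 lower, 2 higher), against 30.9 and 31.2 percent. The median log2 change of the 10 genes in PA2 was -0.78 in wildtype and -1.28 under the label, against -0.015 and 0.012 over all genes.

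Tissue markers changed between these stages too. In wildtype PA2 3 of 5 epithelium, 4 of 6 pouch, 4 of 6 ganglion and all 5 tested heart muscle markers were called lower at E10.5, while 1 epithelium marker was higher and the neural crest markers were 3 higher and 1 lower. Under the label in PA2 3 epithelium, 4 pouch, 1 ganglion and 5 heart muscle markers were lower. There 1 epithelium marker was higher, and 4 neural crest markers were higher and 1 lower. In wildtype PA2 the median epithelium sum was 790 CPM at E9.0 and 357 CPM at E10.5. That of neural crest was 371 and 640 CPM. In wildtype PA1 the epithelium medians were 757 and 460 CPM and the neural crest medians 543 and 637 CPM, with 3 epithelium markers lower and 1 higher and 2 neural crest markers called each way. Their part in the changes below was not tested.

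Of the ligands, Fgf3 and Fgf8 fell in PA2 and Fgf9 rose in PA1. In wildtype PA2, Fgf3 fell by 3.72 (SE 0.32) and Fgf8 by 2.59 (SE 0.23) on the log2 scale. The mean of Fgf8 there was 33.5, 17.6, 10.1 and 4.81 CPM at the 4 stages. In wildtype PA1 it was 21.5, 27.5, 29.3 and 20.2 CPM, and the change from first to last stage, -0.09, was not called. Under the label Fgf3 fell by 3.00 and Fgf8 by 2.26 in PA2. Fgf9 in wildtype PA1 averaged 0.482, 0.918, 2.79 and 5.83 CPM, a rise of 2.20 (SE 0.23), and it rose by 1.65 under the label. Fgf10 fell in wildtype PA2 (-0.60, adjusted p = 0.0084) and was not called elsewhere. Fgf15 fell in PA2 under the label (-2.20, SE 0.30), while in wildtype PA2 its change of -0.37 was not called (adjusted p = 0.34). The difference between these changes was not tested.

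Fgf3 was also called lower at E10.5 in PA1 under the label (adjusted p = 0.045), but the call was not stable. PA1 replicate 3 at E9.0 held 3.48 CPM and the other 3 libraries 0.153, 0.331 and 0.378 CPM, and without it the change was -0.36 (adjusted p = 0.40). It was also lost without replicate 1, 2 or 3 of E10.5 (adjusted p = 0.10, 0.091 and 0.094) and with only the compared groups fitted (adjusted p = 0.13). PA1 replicate 3 of E9.0 also had 0.697 CPM of Fgf15, the highest of its group, and 4.88 CPM of Pax8 against 0.458 to 1.14 CPM in the others. Its otic sum, from the list that holds Pax8, was the lowest of the group, at 73.7 CPM against 78.3 to 101 CPM. Its heart muscle sum was 57.9 CPM, against 19.2 to 23.2 CPM. The markers of PA2 identity summed to 0.996 CPM in this library and to 0.265 to 0.458 CPM in the others. Hoxa2, 1 of them, was at 0.398 CPM against 0 to 0.0631 CPM, where 3 reads in this library are 0.299 CPM. The part of other tissue in this call was not tested.

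Fgfr2 rose in all 4 sets of libraries. In wildtype PA2 its mean was 60.0, 97.9, 139 and 156 CPM and in PA1 97.7, 99.5, 190 and 187 CPM. The log2 changes from E9.0 to E10.5 were 1.37 (SE 0.17) in wildtype PA2 and 0.94 (SE 0.16) in wildtype PA1, and 1.06 and 0.82 under the label. Fgfr1 rose less, by 0.43 (SE 0.14, adjusted p = 0.0098) in wildtype PA2 and 0.41 (SE 0.14, adjusted p = 0.016) in PA2 under the label, and was not called in PA1. Those calls were lost without wildtype PA2 replicate 3 of E10.5 (adjusted p = 0.055) and, under the label, without PA2 replicate 3 or 4 of E9.0 or 1 of E10.5 (adjusted p from 0.067 to 0.11) or with only the compared groups fitted (adjusted p = 0.12).

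Spry1 and Spry4 fell in all 4 sets of libraries and Spry2 in PA2. Spry1 in wildtype PA2 averaged 115, 120, 52.7 and 35.3 CPM, a change of -1.67 (SE 0.23). In wildtype PA1 it averaged 68.2, 61.2, 34.6 and 44.4 CPM, a change of -0.61 (SE 0.22, adjusted p = 0.023). The PA1 call was lost without replicate 2 of E9.0 (adjusted p = 0.055) or replicate 1 of E10.5 (adjusted p = 0.13). Under the label Spry1 changed by -1.91 in PA2 and -1.31 in PA1. Spry4 changed by -1.37 in wildtype PA2, -0.996 in wildtype PA1, -1.26 in PA2 and -1.35 in PA1 under the label, all called. Spry2 fell in PA2, by 0.96 in wildtype and 1.30 under the label, and was not called in PA1 (-0.41, adjusted p = 0.12, and -0.52, adjusted p = 0.071).

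Levels of different genes were compared per kilobase of annotated exon. In wildtype PA2 at E9.0 the order was Spry1 (39.5 CPM per kb), Fgf8 (24.8), Fgf3 (11.3), Fgfr1 (8.63), Fgfr2 (5.81), Spry4 (5.31), Fgf10 (5.12), Spry2 (4.81), Fgf15 (4.17) and Fgf9 (0.589). The neighbours from Fgfr2 to Fgf15 overlapped over the libraries. In wildtype PA1 at E9.0 Spry1 (23.5) and Fgf8 (15.9) led as well, and Fgf9 (0.104), Fgf15 (0.0777) and Fgf3 (0.0688) came last and overlapped. At E10.5 the order was another: Fgfr2 led in wildtype PA2 (15.1) and PA1 (18.1), Spry1 (15.3) and Fgf8 (14.9) came next in PA1 and overlapped, Fgf8 had gone below Spry1 (12.2) and Fgfr1 (11.6) in PA2 (3.56), and Fgf3 was last in both.

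The rest of the pathway was read from gene lists, whose counts stand against the same 18.7, 26.3, 5.94 and 1.52 percent of all genes called between the wildtype arches. Of 17 further FGF ligands 10 could be tested, and 4, 5, 4 and 2 of them were higher in wildtype PA2 at the 4 stages, with none lower. Fgf4, another ligand of epithelia and the neighbour of Fgf3, averaged 17.1, 13.0, 5.46 and 0.0185 CPM in wildtype PA2 and at most 0.0211 CPM in wildtype PA1. Its log2 differences were 4.13, 3.80 and 2.52, called, and 0.03 at E10.5, not called. Fgf1 was called higher in PA2 at the first 3 stages (1.62, 1.48 and 0.71) with means of 3.59, 4.48 and 4.02 CPM. Fgf20 was called at all 4 (0.53, 0.90, 1.56 and 1.14), although its PA2 means were only 0.698 to 2.36 CPM.

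Of 9 response and feedback genes tested beside the Sprouty genes, 4, 2, 2 and 0 were higher in wildtype PA2 at the successive stages and 1, 1, 0 and 1 were lower. Etv4, a transcription factor induced by FGF, was higher in PA2 at E9.0 (1.44, 15.1 ± 1.08 against 4.96 ± 0.844 CPM, SD, n = 4 and 5) and E9.5 (1.01), and its differences at E10.0 and E10.5 were 0.35 and -0.06. Etv5, its close relative, was higher at E9.0 (0.80) and not called at E9.5 (0.39), E10.0 (-0.12) or E10.5 (-0.55). The phosphatase gene Dusp6 (0.14, 0.20, 0.13 and -0.44) and the inhibitor gene Spred1 (0.11, 0.22, -0.09 and -0.29) were called at no stage. Spred3, a relative of Spred1 named after its values were seen, was called higher in PA2 at the first 3 stages (1.10, 0.66 and 0.58) and not at E10.5 (-0.10), with PA2 means of 1.10 to 3.01 CPM. Between E9.0 and E10.5 in wildtype PA2 Etv5 (-1.82), Dusp6 (-0.55) and Spred1 (-0.99) fell, and Etv4 (-0.07) was not called. In wildtype PA1 Etv4 rose (1.43), Etv5 (-0.47) and Spred1 (-0.59) fell and Dusp6 (0.03) was not called. Under the label, 1 of these 4 genes was called against wildtype, Etv5 at E10.5 in PA2 (0.76).

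Of 12 transduction genes between receptor and ERK, 0, 2, 0 and 0 were higher in wildtype PA2 and 3, 1, 0 and 0 lower, shares near those of all genes at both early stages. Of 3 further receptors or receptor-like genes tested, 1 was higher at E9.0 and 1 at E9.5.

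Finally, the genes with the likest patterns were ranked by Pearson's r over the 16 group means of log2(CPM + 1), as a description over means that share stages and arches, among 11351 genes with a mean of at least 5 CPM in a group. For Fgf3 they were Fgf4 (0.988), Hs3st1 (0.982) and Atp6v1c2 (0.979), and for Fgf15 Isl1 (0.966), Ckb (0.964) and Hoxb2 (0.963). For Fgf8 they were Dok5 (0.935), Pcdh7 (0.920) and Msx2 (0.901). Spry1 went most closely with Ccn1 (0.979), Scamp5 (0.975) and Grhl1 (0.970), Spry2 with Acta1 (0.927), Myl12a (0.917) and Anapc11 (0.916), and Spry4 with Grb7 (0.962), Top1mt (0.962) and Nr6a1 (0.960). Fgfr2 went with Dcun1d4 (0.982), Rprd1a (0.977) and Hnrnpa2b1 (0.972), and Fgfr1 with Rabep2 (0.893), Smarca2 (0.886) and Terf2ip (0.871). Fgf9 went with Wwtr1 (0.940), Epb41l3 (0.927) and Azin2 (0.926), and Fgf10 with Smad6 (0.916), Rapgef4 (0.876) and Kazald1 (0.866). Among the 10 genes themselves the highest r was that of Fgf3 with Fgf15 (0.912), and the lowest was that of Fgfr2 with Spry2 (-0.900).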

How the data were processed

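RNA of hand-dissected, flash-frozen arches was extracted with TRIzol, amplified with SMART-seq v4 and made into Nextera XT libraries, per the labels' protocols. The submitters' processing notes name bcl2fastq 2.18, TopHat2 2.1.1, R 3.3.2 and mm10. The counting program, annotation and strandedness are not given in the sources used here.

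The deposited table holds a normalised signal per gene, like CPM, in which the authors' column totals run from 926298 to 1051959, so that it is scaled between libraries. The design assumed plain CPM, and the same test was kept. Every value was a whole multiple of 1 read (100.0% of values, tolerance 0.1 reads, largest distance 7.9e-05), which gave back the reads. Symbols came from GENCODE M21 and matched 21921 of 21948 identifiers.

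Differences were tested with limma 3.58.1 in R 4.3.3 (trended prior, two-sided) on log2(CPM + 1), with 16 group means fitted over all 68 libraries and Benjamini-Hochberg adjustment over the 18428 genes that reached 1 CPM in 3 or more libraries. A call is an adjusted p under 0.05. The groups come from the labels. Alternatives were pseudocounts of 0.25 and 5, median-of-ratios scaling, no filter on low values and a stricter one at 5 CPM, a fit of only the compared groups, the embryo as a replicate block, edgeR 4.0.16 on the recovered reads, and each library left out. Leaving out the 4 libraries high in blood or yolk sac markers was added after seeing the data. The fit was tested on simulated data.

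Replicate numbers pair the arches, since the series text says that both came from a single embryo. Deviations from group means had a median correlation of 0.347 over 33 same-embryo pairs (30 above 0.1) and of -0.124 over 116 other pairs. Whether embryos shared a litter is not given, so p-values measure the spread between these embryos. Libraries were amplified by PCR without molecular identifiers, so the 3-read floors cover counting error only.

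The 10 genes and the gene lists were chosen with earlier results of these data known. The genes named beyond the 10 are Hoxa2, the list genes described and the 3 likest genes of each member; Ski, Pax8 and Neurog2 were picked as examples after their values were seen. Promoter sequences are RefSeq's for GRCm38.p6, and those of Fgf8, Fgf15, Fgfr1 and Spry4 were not matched.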

Additional observations from a re-analysis of the deposited data

Results flagged for a closer look

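Of 119 groups of 4 or 5 libraries tested among the 10 genes, 10 held a library farther from its group than Dixon's critical value allows at the 95% level, and chance alone flags about 5% of groups. Fgf3 was 3.48 CPM in PA1 replicate 3 at E9.0 labelled Hoxa2-/-, against 0.153 to 0.378 CPM in the others. It was 19.0 CPM in PA2 replicate 4 of the same stage and label, against 31.8 to 33.6 CPM. Spry2 was 12.7 CPM in PA2 replicate 3 of that group, the library with the yolk sac markers, against 6.28 to 6.73 CPM.

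At E10.0 under the label, Fgf9 was 6.26 CPM in PA2 replicate 1 (others 2.72 to 3.26 CPM) and Fgfr2 was 129 CPM in PA2 replicate 3 (others 155 to 165 CPM). In PA1 of that stage and label, Fgf15 was 1.14 CPM in replicate 3 (others 0.251 to 0.393 CPM) and Fgfr1 was 122 CPM in replicate 1 (others 89.6 to 97.6 CPM).

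In wildtype PA2, Fgf10 was 28.8 CPM in replicate 1 at E9.0 (others 21.3 to 22.5 CPM) and 19.1 CPM in replicate 5 at E9.5 (others 26.3 to 27.7 CPM). Fgfr1 was 94.5 CPM in wildtype PA2 replicate 2 at E9.5 (others 111 to 112 CPM).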

How the results depend on the processing

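Of the 68 calls among the 240 gene and contrast pairs, 52 stayed called with the same sign in every alternative, 57 in every alternative other than leaving out a library, and none changed sign in any. A further 11 pairs were called only in an alternative. The wildtype arch comparisons gave 21 calls of 40, and 20 to 21 when each library was left out. Those labelled Hoxa2-/- gave 18, and 16 to 20 with each library left out, 14 with only the compared groups fitted and 21 with the replicate block. The label comparisons gave 2 calls of 40 in PA2, 1 with only the compared groups, 3 without the 4 libraries high in blood or yolk sac markers, and 1 to 3 with each library left out. In PA1 they gave 2 throughout, and the difference of label effects gave 0 throughout. The stage comparisons gave 12 of 20 in wildtype, 11 to 12 with each library left out, and 13 of 20 under the label, 11 with only the compared groups and 12 to 14 with each library left out. The replicate block (the paired fit) added the 4 calls given in the report, such as Spry1 at E10.0 in wildtype (adjusted p = 0.0087, limma), and changed no other call. Median-of-ratios scaling moved the median of all genes by at most 0.041 on the log2 scale. The cause of these changes was not tested. Depth limits Fgf3 and Fgf15 in PA1, where values of a few reads bound what could be detected.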
